A study of Rattus norvegicus with 6 samples.

Results

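The brains of naive rats, which had no stroke, were compared between 2 ages on 2 of the 6 Affymetrix rat whole-transcript arrays of the series. The aged naive array held 1 RNA pool of 15 male Sprague-Dawley rats of 18 to 20 months and 520 to 600 g. The young naive array held 1 pool of 15 males of the same strain, of 3 to 5 months and 290 to 360 g. The comparison is the log2 value on the aged naive array minus that on the young naive array, taken for each of 14497 genes that a probe set with a single gene symbol represents. For counts and lists a gene was kept if it reached the 40th percentile of all probe sets (6.56 on the aged and 6.55 on the young array) on at least 1 of these 2 arrays. That left 10414 genes, of which 10063 passed on both arrays, 190 on the aged array alone and 161 on the young array alone. The other 4 arrays held pools of 23 aged rats (19 to 20 months) or 19 young rats (3 to 4 months) with a cerebral infarct, sampled around the infarct at 3 d or 14 d. They enter below beside the naive values, in fits of age over all arrays and in the choice of 1 probe set for each gene.

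A pool averages its animals, so the spread between rats is not visible, and with 1 array an age no naive difference below has a replicate check or a p-value. For the naive tissue the labels give only healthy brain, with no region, whereas the series title speaks of cortex. Whether both naive pools were dissected alike is given by no source used here, so age and dissection cannot be told apart in any difference below. Markers of several regions were kept in it, among them all 11 matched cortical layer markers and 18 of 19 matched striatal markers. In tissue of this kind fewer cells of a type and less RNA per cell cannot be told apart.

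In the ageing rodent brain the best known transcript shift is one of glia. Microglia, the resident macrophages, raise complement, lysosomal and antigen presentation genes, and astrocytes raise intermediate filament genes. MHC class II molecules present peptides to CD4 T cells, and Cd74 encodes the invariant chain that guides them through the cell. Neurons of the striatum, thalamus, hypothalamus and midbrain each carry transmitter and peptide genes that cortex holds at low levels, so such genes also report which tissue a sample contains.

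The 2 naive arrays were close, with a Pearson correlation of 0.9947 across all 28826 probe sets and array medians of 7.10 (aged) and 7.09 (young). Over the kept genes the difference had a median of -0.004 and an SD across genes of 0.17, and 95% of genes lay between -0.31 and 0.35. The SD across genes was 0.20 in level quartile 1, the lowest, and 0.14 in level quartile 4, the highest. For 379 genes with several probe sets the range between probe sets of 1 gene had a median of 0.11 and a 95th percentile of 0.43. In 10 of these genes 1 probe set was past 1.5-fold while another differed by under 0.2, the widest being H3f3a (-0.996 for 1 probe set, against 0.06 for the probe set with the highest level). No gene named below as past 2-fold had a second probe set.

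Larger differences were mostly toward the aged array. At least 2-fold higher in aged rats were 17 genes (0.163% of those kept), and 0 genes (0%) were at least 2-fold lower. At 1.5-fold the counts were 63 higher (0.605%) and 11 lower (0.106%), although the shares on either side of 0 were nearly equal, with 48.7% of kept genes above it. The counts in the lists below are to be set against these shares. Of the 17 genes, 7 belong to marker lists of thalamus, hypothalamus, midbrain monoamine neurons or pineal and pituitary gland, 5 to lists of immune genes and 5 to neither. Of the 63 genes, 12 belong to these region lists, 17 to the immune lists and 34 to neither. Of the 17, 8 were kept through the aged array alone, so their young values lie in the low range where array signal is least certain.

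**Figure D1:**
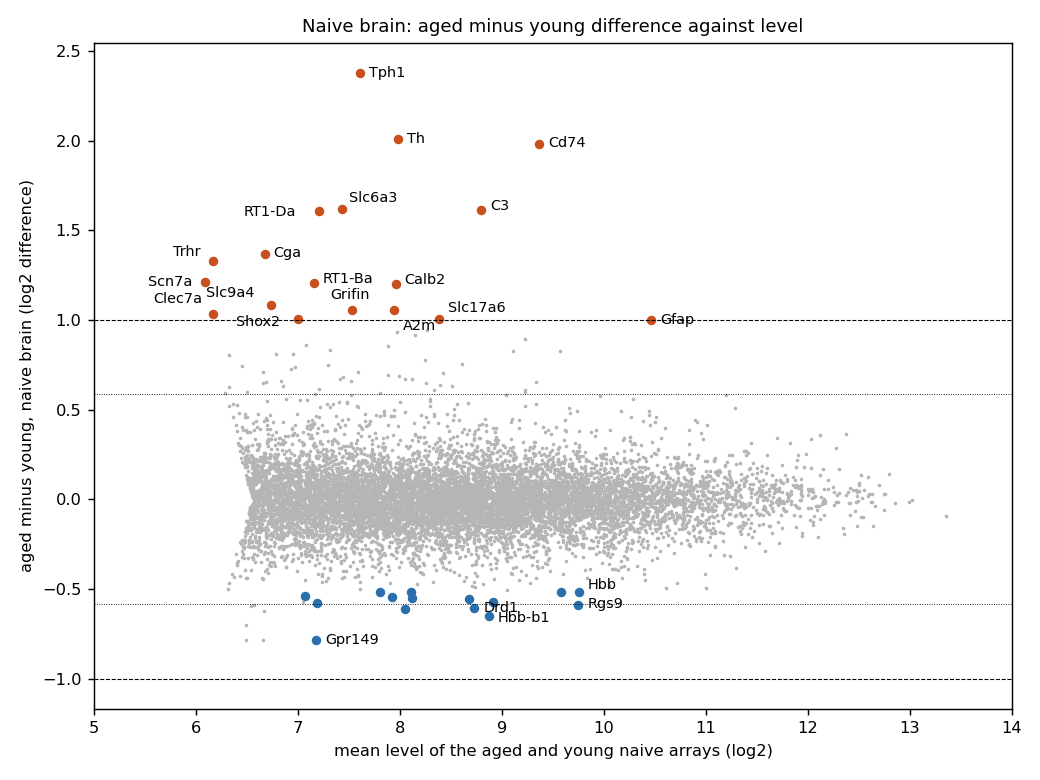
Aged minus young difference (log2) of each kept gene in naive brain against its mean level on both naive arrays (log2). Coloured points are the named genes, orange higher and blue lower in aged rats, dashed lines mark 2-fold and dotted lines 1.5-fold; 17 genes lie above the upper dashed line, Gfap lies just under it, and no gene lies below the lower one.

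MHC class II genes held 3 of the 17, of which RT1-Da was kept through the aged array alone. Cd74 had a level of 10.36 on the aged and 8.37 on the young array, a log2 difference of 1.98 or 3.96-fold. RT1-Da, an alpha chain of the class II molecule RT1-D, had 8.01 on the aged and 6.40 on the young array (1.61), and RT1-Ba, an alpha chain of RT1-B, had 7.76 on the aged and 6.55 on the young array (1.21). RT1-Bb, the beta chain of RT1-B, was at 7.44 on the aged and 6.98 on the young array (0.46). The chains that load peptide or restrain loading stood nearer to 0 or below it: RT1-DMa stood at 0.09, RT1-DMb at -0.01, RT1-DOb at -0.02 and RT1-DOa at -0.20. Not kept were 3 matched genes, of which RT1-Db1 had 6.02 on the aged and 5.52 on the young array, RT1-Ha had 5.84 on the aged and 5.62 on the young array, and Ciita, the coactivator that switches on class II genes, had 5.90 on the aged and 6.02 on the young array. The 8 kept members had a median of 0.28, and over all 11 matched members it was 0.22. RT1 genes have near-identical relatives that may share probes, so single values are uncertain.

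The promoters of 3 class II chains are shown for both chains of RT1-B and the alpha chain of RT1-D, which were higher on the aged array, RT1-Bb by under 1.5-fold. In mammals these promoters carry an X box, bound by RFX, and a Y box, bound by NF-Y, on which Ciita acts. The sequences run 5′ to 3′ in the direction of the gene, from 250 bases before to 50 after the start, as RefSeq gives them for GRCr8. Capitals mark the Y box letters CTGATTGG.
RT1-Da: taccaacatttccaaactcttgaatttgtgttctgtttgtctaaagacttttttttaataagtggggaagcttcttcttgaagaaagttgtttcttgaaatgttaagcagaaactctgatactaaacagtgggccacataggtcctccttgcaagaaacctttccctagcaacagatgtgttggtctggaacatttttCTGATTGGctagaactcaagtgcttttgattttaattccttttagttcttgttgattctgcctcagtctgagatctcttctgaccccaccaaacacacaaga
RT1-Ba: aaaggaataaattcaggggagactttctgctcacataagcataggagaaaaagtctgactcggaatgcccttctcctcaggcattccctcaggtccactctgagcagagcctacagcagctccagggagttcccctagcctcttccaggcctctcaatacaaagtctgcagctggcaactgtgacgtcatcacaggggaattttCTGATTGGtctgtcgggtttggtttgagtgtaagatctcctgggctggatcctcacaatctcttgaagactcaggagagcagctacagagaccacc
RT1-Bb: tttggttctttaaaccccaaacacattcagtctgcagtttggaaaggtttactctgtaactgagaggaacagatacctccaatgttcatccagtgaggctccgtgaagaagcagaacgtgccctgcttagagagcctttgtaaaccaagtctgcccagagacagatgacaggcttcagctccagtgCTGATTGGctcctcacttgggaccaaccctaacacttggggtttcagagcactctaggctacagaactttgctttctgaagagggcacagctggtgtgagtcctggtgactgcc

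The RT1-Da promoter lies at chr20:4515165-4515464 on the plus strand, and its Y box begins 52 bases before the start. That of RT1-Ba lies at chr20:4576807-4577106, also on the plus strand, with a Y box 46 bases before the start. That of RT1-Bb lies at chr20:4604069-4604368 on the minus strand, with the Y box 64 bases before the start. The letters were searched on both strands, and only the Y box was searched. They occur in 6 of 9 class II promoters of the table and in 3.5% of all 33469 promoters. RT1-Db1, RT1-DOa and RT1-Ha hold them too, although RT1-DOa was not higher on the aged array, and Cd74 does not hold them in this window. A match describes letters and does not show binding.

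Complement genes were higher in aged naive brain, led by C3. C3, the central component of the cascade, had 9.61 on the aged and 7.99 on the young array (1.62, 3.07-fold), and Serping1, the C1 inhibitor, had 8.31 on the aged and 7.45 on the young array (0.86). The C1 proteases C1s (0.53) and C1r (0.37) and the 3 chains of C1q, C1qa (0.32), C1qb (0.23) and C1qc (0.19), differed by less. Of 14 kept members 13 were above 0 and 2 were past 1.5-fold, against 48.7% and 0.605% of all kept genes. Their median was 0.21, against -0.004 over all kept genes. C6, C7 and Cfi were not kept, and over all 17 matched members the median was 0.19.

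Homeostatic microglia genes were higher in aged naive brain in 15 of 16 matched members. Tyrobp, the signalling adaptor of microglial receptors, had 9.52 on the aged and 8.69 on the young array (0.83). Gpr34, a lysophospholipid receptor, stood at 0.61, Ctss, a lysosomal protease of microglia, at 0.43, Csf1r, the receptor that microglia need to survive, at 0.39, and Cx3cr1, the fractalkine receptor, at 0.34. All 15 kept homeostatic microglia genes were above 0, against 48.7% of all kept genes, with a range of 0.01 to 0.83 and a median of 0.28. The 1 matched member that was not kept, Fcrl2, had 6.29 on the aged and 6.40 on the young array. The linear levels of the kept and unkept members summed to 9371 on the aged and 7294 on the young array.

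Genes that mark microglia in age and disease were mostly higher as well. Clec7a, the beta-glucan receptor dectin-1, had 6.68 on the aged and 5.64 on the young array (1.04), so it passed the filter in aged brain alone. Spp1 (osteopontin, 0.83), Lgals3 (galectin-3, 0.73), Gpnmb (a glycoprotein of lipid-laden phagocytes, 0.67) and Csf1 (a growth factor of microglia, 0.65) were past 1.5-fold as well. Of the same list Cst7 stood at -0.06, Axl at -0.08 and Lpl at 0.15. Of 20 kept members 17 were above 0 and 6 past 1.5-fold, against 48.7% and 0.605% of all kept genes. Their median was 0.31. Ccl3, Ccl4, Ms4a7, Lilrb4 and Cd52 were not kept, and with them the median over the 25 matched members was 0.18. The summed linear level of the matched list was 30431 on the aged and 25848 on the young array.

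Lysosome genes stood above 0 in all 22 matched members, each of them kept, with a median of 0.25 and a range of 0.07 to 0.61. Npc2, a cholesterol carrier, had 10.41 on the aged and 9.92 on the young array (0.49), Ctsz (cathepsin Z) had 8.70 on the aged and 8.22 on the young array (0.48), and Laptm5, a membrane protein of blood-derived cells, had 9.06 on the aged and 8.61 on the young array (0.45). The 1 member past 1.5-fold was Tmem176a at 0.61.

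The same aged pool that held higher immune genes also differed in region markers, with medians of 0.33 for thalamic, 0.51 for midbrain and -0.45 for striatal genes. Their part in the immune differences was not tested. Of the 17 genes at least 2-fold higher in aged rats 7 are in the 4 region lists, so leaving those lists out gives a count of 10. That count follows from the lists and does not adjust any other gene for the tissue dissected.

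Markers of T cells and of blood-borne myeloid cells lay mostly below the filter. Cd4 had 8.99 on the aged and 8.23 on the young array (0.76), and in rats CD4 is carried by macrophages and microglia as well as by T cells. The T cell receptor subunits Cd3d (5.65 on both arrays), Cd3e (5.51 aged, 5.60 young) and Cd3g (3.64 aged, 3.96 young) were all below the filter. So were the neutrophil and monocyte genes S100a8 (3.43 aged, 3.68 young), S100a9 (6.01 aged, 5.95 young), Mpo (6.37 aged, 6.17 young) and Ccr2 (5.32 aged, 5.53 young). Of 19 matched T and B cell genes 5 were kept, and of 17 monocyte and neutrophil genes 7 were kept. The 1 kept monocyte and neutrophil gene past 1.5-fold was Fcgr2b, an inhibitory Fc receptor, with 7.51 on the aged and 6.65 on the young array (0.86). Over all matched members the medians were 0.02 for T and B cell genes and 0.01 for monocyte and neutrophil genes.

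Interferon-stimulated genes showed small differences and many low signals. Oasl2, of the oligoadenylate synthetase-like family, had 6.80 on the aged and 6.20 on the young array (0.60), and Ifi27, an interferon-induced gene, had 9.53 on the aged and 8.93 on the young array (0.60). Of 42 matched genes 24 were kept, of which 18 were above 0, with a median of 0.22. The young value of Oasl2 lies below the filter. Among the 18 not kept, Mx1 had 5.70 on the aged and 5.68 on the young array. Genes of MHC class I peptide loading were nearer to 0, with a median of 0.07 over 15 kept members and B2m, the class I light chain, at 0.36.

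Astrocyte filament and stress genes were among the higher ones. Gfap, the intermediate filament that marks reactive astrocytes, had 10.96 on the aged and 9.96 on the young array, a difference of 1.0 that rounds to the 2-fold line and lies just under it. Timp1 (an inhibitor of metalloproteinases, 0.59), Hspb1 (a small heat shock protein, 0.55), Cp (ceruloplasmin, 0.52) and Vim (vimentin, 0.43) were also higher, while Steap4 stood at -0.30. Of 18 kept reactive astrocyte genes 12 were above 0 with a median of 0.11, and over all 25 matched members the median was 0.04. At a 60th percentile filter, which also keeps genes that reach it on 1 naive array alone, the kept members had a median of 0.43. Serpina3n, a reactive astrocyte marker of the mouse, had 5.94 on the aged and 6.16 on the young array and was not kept. Homeostatic astrocyte genes had a median of 0.09, with S100b at 0.31 and Aqp4, the water channel of astrocyte endfeet, at 0.18. Myelin genes had a median of 0.08, with Klk6 at 0.46 and Ermn at 0.37.

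**Figure D2:**
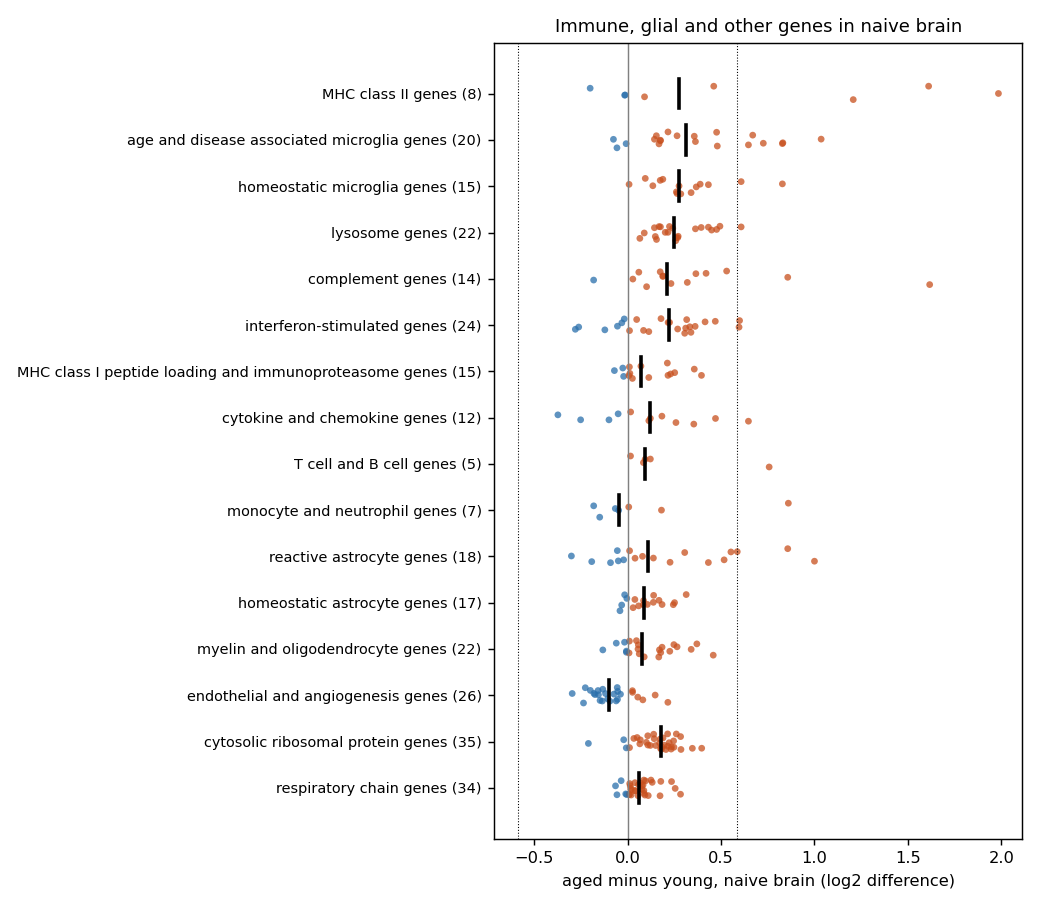
Aged minus young difference (log2) in naive brain for the kept members of 16 lists, 1 point a gene, orange above and blue below 0, with the number kept in brackets. Black bars are list medians and dotted lines mark 1.5-fold; all 22 lysosome genes and all 15 homeostatic microglia genes lie above 0, while class II genes spread from -0.20 to 1.98.

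Genes of brain regions other than cortex were a further group among the higher genes, with 7 of the 17 past 2-fold and 12 of the 63 past 1.5-fold. Th (tyrosine hydroxylase, the rate-limiting enzyme of dopamine synthesis) had 8.98 on the aged and 6.97 on the young array (2.01, 4.02-fold). Slc6a3, the dopamine transporter, had 8.24 on the aged and 6.62 on the young array (1.62). Both are transcribed in dopamine neurons, many of which have their cell bodies in the midbrain. Th is also in the olfactory bulb and migrating neuroblast list, whose 10 kept members had a median of -0.04. Ret, the receptor subunit for GDNF (0.68), Ddc, aromatic amino acid decarboxylase (0.51), and Slc18a2, the vesicular monoamine transporter (0.46), were higher too, while the transcription factor Pitx3 of dopamine neurons stood at 0.04. The 7 kept midbrain monoamine markers were all above 0 with a median of 0.51, and of these Slc18a2 was kept through the aged array alone. The 5 that were not kept were Slc6a4, Tph2, Foxa1, Chrna6 and Dbh, and over all 12 matched members the median was 0.25. Of the serotonin neuron markers Slc6a4 stood at -0.07 and Tph2 at -0.08. The summed linear level of the matched list was 1905 on the aged and 1119 on the young array.

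Thalamic markers were also higher on the aged array. Calb2 (calretinin) had 8.56 on the aged and 7.36 on the young array (1.20). Shox2, a homeobox factor of thalamic neurons, had 7.50 on the aged and 6.49 on the young array (1.01), and Slc17a6, the vesicular glutamate transporter VGLUT2, had 8.89 on the aged and 7.88 on the young array (1.005). Prkcd, a protein kinase C of thalamic relay neurons, had 9.68 on the aged and 8.78 on the young array (0.89). All 12 matched markers were kept, with a median of 0.33. Above 0 were 10 and past 1.5-fold 4, against 48.7% and 0.605% of all kept genes. Of these 4, Shox2 was kept through the aged array alone. The 2 below 0 were Cd24 (-0.14) and Six3 (-0.06), of which Six3 is also in the striatal list. The summed linear level of the 12 thalamic markers was 6649 on the aged and 5171 on the young array.

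Some peptide genes of the hypothalamus were higher on the aged array. Oxt (oxytocin) had 8.61 on the aged and 7.69 on the young array (0.92), Pmch (melanin-concentrating hormone) had 7.35 on the aged and 6.54 on the young array (0.81), and Avp (vasopressin) had 7.94 on the aged and 7.24 on the young array (0.71). Hcrt (orexin) was at 0.39 and Gal (galanin) at 0.25, whereas Cartpt stood at -0.18 and Otp at -0.15. Of 11 kept markers 9 were above 0 with a median of 0.23, and of these Pmch was kept through the aged array alone. Sim1, Crh, Hdc and Ghrh were not kept, and with them the median over 15 matched markers was 0.06.

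Tph1, the tryptophan hydroxylase of the pineal gland and of tissues outside the brain, had 8.79 on the aged and 6.41 on the young array (2.38). Its young value is at percentile 37.5 of that array, below the filter, so no fold is given. Cga, the shared alpha subunit of pituitary glycoprotein hormones, had 7.36 on the aged and 5.99 on the young array (1.37). Both passed the filter on the aged array alone. The pineal enzymes Aanat (7.89 on the aged and 7.88 on the young array) and Asmt (7.45 aged, 7.25 young) did not stand apart in this way. Gh1 (5.92 aged, 6.07 young) and Prl (5.79 aged, 5.30 young), the main hormones of the anterior pituitary, were below the filter on both. Trhr, the receptor of thyrotropin-releasing hormone, had 6.83 on the aged and 5.50 on the young array (1.33). It also passed on the aged array alone, with a young value at percentile 22.0.

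Choroid plexus genes were moderately higher. Sostdc1, a secreted BMP antagonist, had 8.23 on the aged and 7.54 on the young array (0.69), Slc4a5, a bicarbonate transporter, had 7.998 on the aged and 7.53 on the young array (0.47), and Ttr (transthyretin) had 12.55 on the aged and 12.19 on the young array (0.36). Of 16 kept genes 13 were above 0 with a median of 0.28. Meningeal genes had a median of 0.03 over 17 kept.

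Striatal neuron markers lay on the other side, with all 18 kept genes below 0 and a median of -0.45. Drd1, the dopamine receptor of the direct pathway, had 8.42 on the aged and 9.03 on the young array (-0.61), and Rgs9, a regulator of G protein signalling, had 9.45 on the aged and 10.04 on the young array (-0.59); both are past 1.5-fold. Drd2, the receptor of the indirect pathway (-0.48), Tac1, the substance P precursor (-0.47), Ppp1r1b, the phosphoprotein DARPP-32 (-0.47), Pde10a, a phosphodiesterase (-0.45) and Adora2a, an adenosine receptor (-0.44) differed by similar amounts. Six3 at -0.06 was nearest to 0. The summed linear level of the list was 15387 on the aged and 20991 on the young array. Striatal markers were thus lower in the same aged pool in which thalamic, midbrain and choroid plexus markers were on balance higher.

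Cortical and general neuronal genes showed small differences, below 0 for most members in several lists. Of 11 cortical layer markers 9 were below 0 with a median of -0.11, the widest being Neurod6 (9.29 on the aged and 9.58 on the young array) and Fezf2 (8.70 aged, 8.96 young), both transcription factors of excitatory neurons. Of 19 glutamatergic genes 17 were below 0 with a median of -0.16, with Slc17a6 the one at 1.005 and the NMDA receptor subunit Grin2a at -0.27. Slc17a7, the cortical vesicular transporter VGLUT1, stood at -0.05. Of 25 potassium channel genes 20 were below 0 with a median of -0.18, led by Kcns2 (-0.47) and Kcnj4 (-0.42). GABAergic genes had 7 of 19 above 0 and a median of -0.07. The interneuron peptides Vip (7.27 on the aged and 7.67 on the young array), Sst (11.08 aged, 11.39 young) and Npy (9.66 aged, 9.91 young) were lower. Calb2 was higher, and Adarb2 (0.24), Pvalb (0.11) and the peptide Cck (0.04) were above 0 too. Nearer to 0 were neurofilament and tubulin genes, with 9 of 15 kept genes above 0 and a median of 0.03, and synaptic vesicle release genes, with 11 of 25 above 0 and a median of -0.04. None of these lists had a member past 1.5-fold toward the young array.

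Immediate early genes, which neuronal activity induces, lay below 0 in 19 of 22 kept members, with a median of -0.15. Nr4a1 had 8.62 on the aged and 9.20 on the young array (-0.57), Npas4 had 8.70 on the aged and 9.06 on the young array (-0.36), Arc had 9.45 on the aged and 9.80 on the young array (-0.35) and Egr3 had 9.17 on the aged and 9.51 on the young array (-0.34). Fos differed by -0.07. No member reached 1.5-fold.

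**Figure D3:**
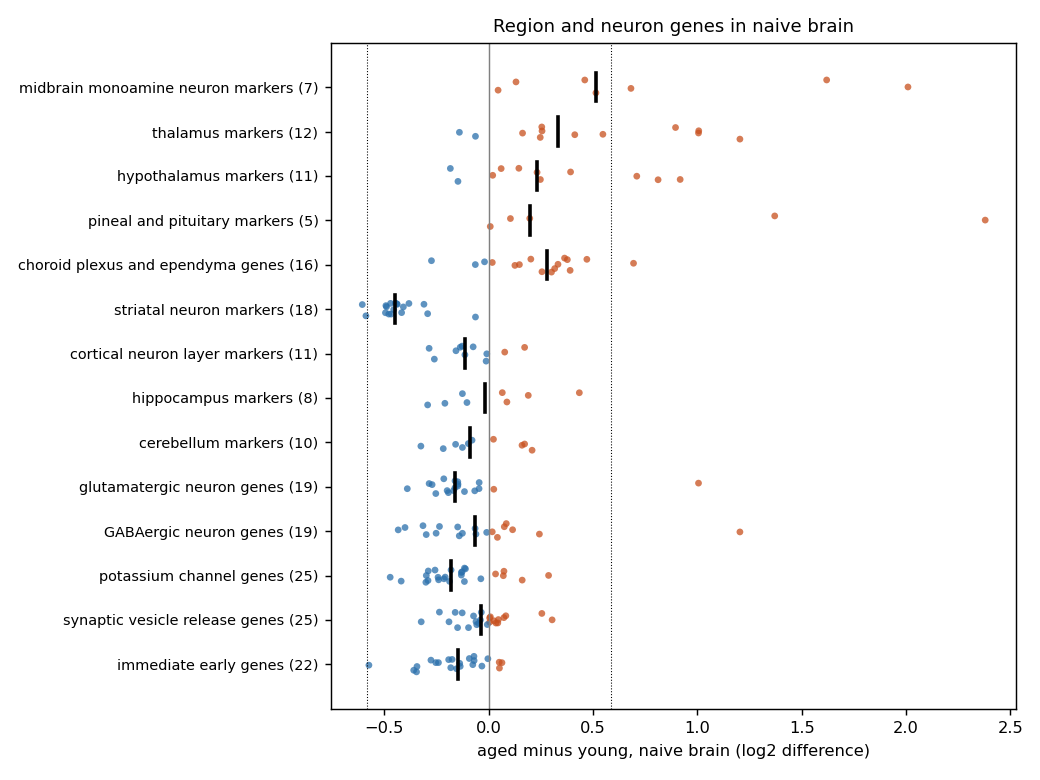
Aged minus young difference (log2) in naive brain for the kept members of 14 lists of brain regions and neuronal genes, 1 point a gene, orange above and blue below 0, with the number kept in brackets. Black bars are list medians and dotted lines mark 1.5-fold; midbrain markers lie above 0, all 18 striatal markers lie below 0, and Th at 2.01 and Tph1 at 2.38 are the rightmost points.

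The lowest gene by the rule for named genes was Gpr149, an orphan receptor, with 6.79 on the aged and 7.57 on the young array (-0.79). The beta-globins Hbb-b1 (8.54 aged, 9.20 young, -0.65) and Hbb (9.49 aged, 10.01 young, -0.52) were both lower in aged rats. They are near-identical, so their probes may share signal. Globin RNA can come from red cells left in the tissue, and its source here was not tested. The other red cell genes, Alas2, Slc4a1, Epb42 and Ahsp, were not kept. Lpar6, a lysophosphatidic acid receptor, had 7.74 on the aged and 8.35 on the young array (-0.61). Stc1, a secreted glycoprotein (-0.58), Adamts3, a procollagen protease (-0.56), Htr1d, a serotonin receptor (-0.55), Inhba, the activin A subunit (-0.55), Pou3f4, a POU transcription factor (-0.52), and Lrrc10b (-0.51) completed most of the low end. Of the 11 genes past 1.5-fold lower, 6 were kept through the young array alone, including Cd200r1, an inhibitory receptor of myeloid cells, at 6.14 on the aged and 6.84 on the young array (-0.70).

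Several genes outside the lists were past 2-fold. A2m, the protease inhibitor alpha-2-macroglobulin, had 8.47 on the aged and 7.42 on the young array (1.05). Scn7a, an atypical sodium channel of glia and of sodium-sensing brain sites, had 6.70 on the aged and 5.49 on the young array (1.21). Slc9a4, a sodium-hydrogen exchanger, had 7.28 on the aged and 6.19 on the young array (1.09), and Grifin, a galectin-related protein, had 8.06 on the aged and 7.00 on the young array (1.06). Scn7a and Slc9a4 were kept through the aged array alone, with young values at percentiles 21.8 and 33.5 of that array. Between 1.5-fold and 2-fold were Mgst1, a microsomal glutathione transferase, at 8.73 on the aged and 7.79 on the young array, and Kcnj16, an inward rectifier potassium channel, at 8.43 on the aged and 7.50 on the young array. Pla2g7, the platelet-activating factor acetylhydrolase, had 9.98 aged and 9.15 young. The myeloid genes Fcer1g (9.66 aged, 9.01 young), Mpeg1 (8.33 aged, 7.64 young) and Adgre1, the rodent macrophage marker F4/80 (7.85 aged, 7.19 young), were in this range too. These last 6 genes were picked after their values were seen.

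Housekeeping lists differed by little per gene but often one way. Of 35 kept cytosolic ribosomal protein genes 32 were above 0, against 48.7% of all kept genes, with a median of 0.18 and none past 1.5-fold. Rps3 had 10.79 on the aged and 10.39 on the young array (0.40). Of 34 respiratory chain genes 29 were above 0 with a median of 0.06. Antioxidant and detoxification genes had 19 of 22 above 0 with a median of 0.16, led by Gstp1, a glutathione transferase at 0.56. Glucocorticoid-responsive genes had 12 of 15 above 0 with a median of 0.16, among them the kinase Sgk1 (10.68 aged, 10.21 young) and the inhibitor of NF-kappaB Nfkbia (8.19 aged, 7.77 young). Endothelial genes were below 0 in 20 of 26 with a median of -0.10, and Kdr, the receptor VEGFR2, was at -0.30. Medians lay near 0 for cholesterol synthesis (-0.01), senescence (0.01), circadian clock (0.01) and immature neuron genes (-0.01), and Cdkn2a, the senescence gene of p16, was not kept (5.96 on both arrays). With 1 pool an age these shifts cannot be set against a spread between pools.

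The same aged minus young difference was then read in the 2 pairs of arrays after stroke, which share no array with the naive pair. Across the 10414 genes, which are not independent replicates, the naive difference had a Pearson correlation of 0.01 with that at 3 d and 0.11 with that at 14 d, and the stroke pairs correlated at 0.31 with each other. Of the 17 genes 2-fold higher in naive aged brain, 6 were above 0 at 3 d, when 37.5% of all kept genes were, and 11 at 14 d, when 51.1% were; 3 were above 0 at both, when 23.8% of all kept genes were. Of the 63 genes past 1.5-fold, 20 were kept through the aged array alone. Of the 63, 34 were above 0 at 3 d, 47 at 14 d and 24 at both. Their median was 0.76 in naive brain, 0.03 at 3 d and 0.39 at 14 d. At 3 d 2 of the 63 were at least 1.5-fold higher in aged rats, against 0.413% of all kept genes, and at 14 d 16 were, against 4.71%.

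For single genes the values were as follows. C3 stood at 0.49 at 3 d and 0.58 at 14 d, Serping1 at 0.38 and 0.49, and Gfap at 0.18 and 0.21, above 0 each time. Cd74 (-0.42 and 0.80), RT1-Da (-0.82 and 1.12) and RT1-Ba (-0.64 and 0.78) were below 0 at 3 d and above it at 14 d. The class II list had medians of 0.28 in naive brain, -0.10 at 3 d and 0.70 at 14 d, and the lysosome list 0.25, -0.01 and 0.37. Th (-0.14 and -0.21), Shox2 (0.03 and -0.01) and Slc17a6 (-0.01 and 0.08) were near 0 or below it in both stroke pairs, where their levels were lower than in naive brain. Other region markers differed: Prkcd stood at -0.10 and 0.77, Rgs16 at 0.36 and 0.45 and Cga at 0.36 and 0.52. Thalamic markers had medians of 0.33, -0.04 and 0.04, with 4 of 12 above 0 at 3 d and 6 at 14 d. Midbrain markers had medians of 0.51, 0.06 and -0.32. Striatal medians were below 0 in all 3 pairs, at -0.45, -0.16 and -0.49. Oxt (1.22) and Avp (1.26) were higher on the aged array at 3 d but not at 14 d (-0.46 and -0.22).

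**Figure D4:**
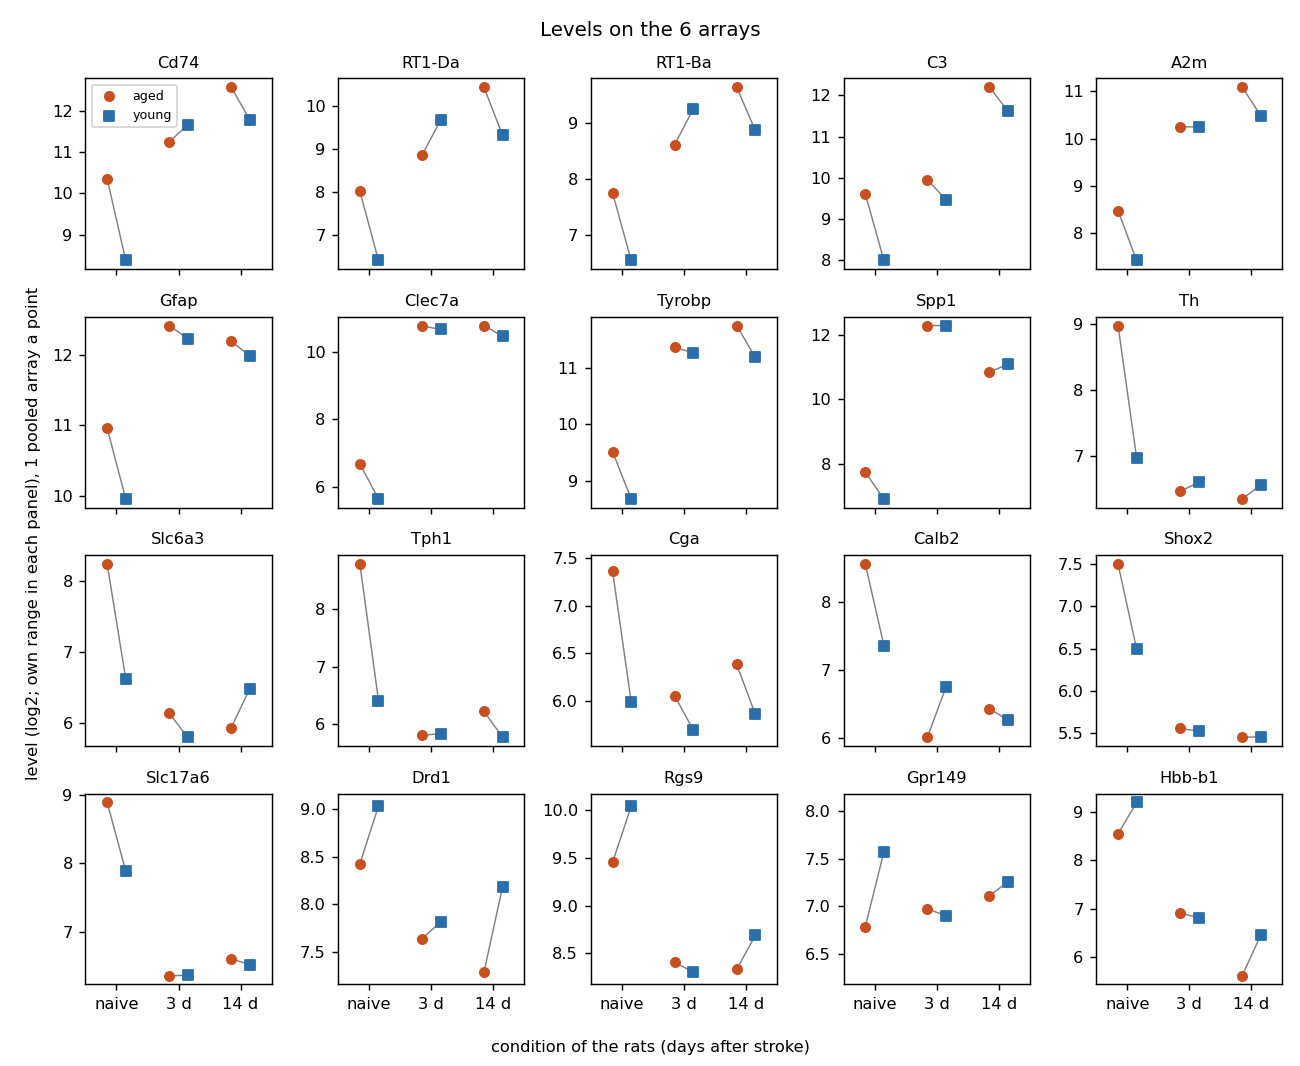
Levels (log2) of 20 genes on the 6 arrays, 1 point for each pool, aged (orange circles) left of young (blue squares) in naive brain and at 3 d and 14 d after stroke; each panel has its own range. Th differs by 2.01 in naive brain and by -0.14 and -0.21 after stroke, C3 and Gfap are higher on the aged array each time, and RT1-Da and RT1-Ba are lower on the aged array at 3 d.

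**Figure D5:**
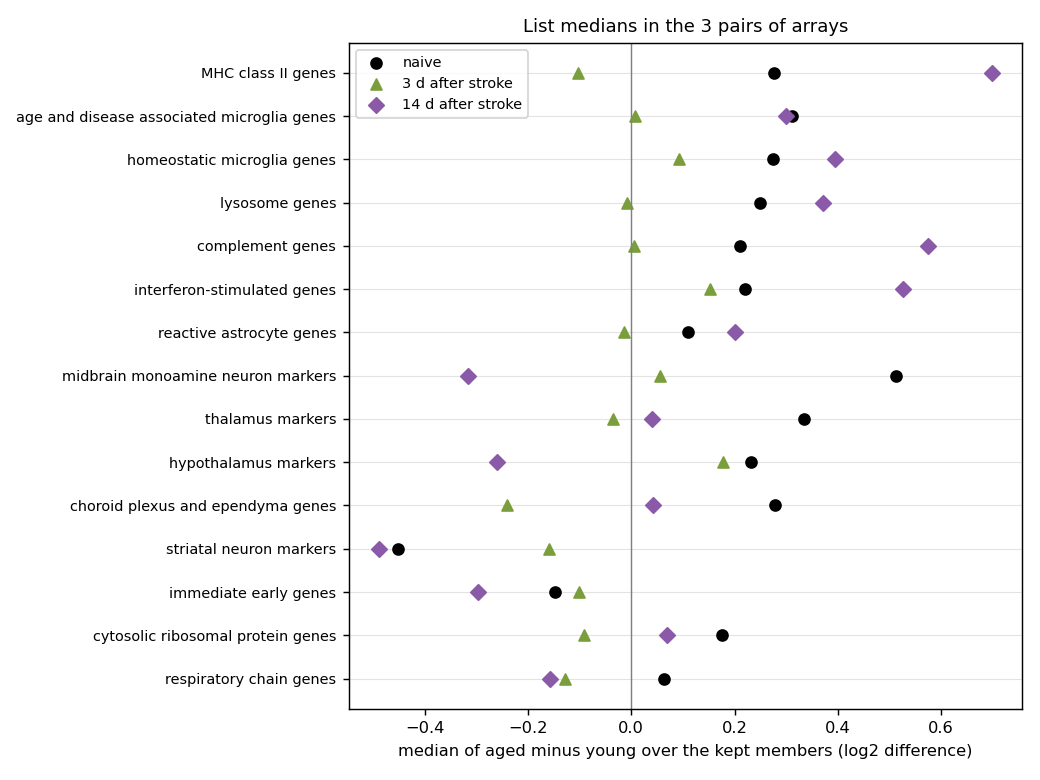
Median aged minus young difference (log2) over the kept members of 15 lists, in naive brain (circles), at 3 d (triangles) and at 14 d (diamonds) after stroke. The striatal median lies below 0 in all 3 pairs, the midbrain median is 0.51 in naive brain and -0.32 at 14 d, and the class II median is above 0 in naive brain and at 14 d.

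A limma fit of age with time after stroke as an additive term, which takes the 3 pairs as repeats, passed 0 of 10414 genes (0%) at an adjusted p of 0.05. At an unadjusted p under 0.05 there were 900 genes (8.64%), 417 higher and 483 lower in aged rats, and the smallest adjusted p was 0.493. With trended and robust variances 6 genes passed: Cd180, Fxyd1, Cd4 and Serping1 were higher and Drd2 and Adora2a lower in aged rats. Without the 3 d pair 26 passed, among them RT1-Da (1.37 ± 0.16 (SE), limma adjusted p = 5.46e-05), Cd74 (1.39 ± 0.19, adjusted p = 0.000547) and C3 (1.10 ± 0.18, adjusted p = 0.0042) higher and Drd1 (-0.75 ± 0.16, adjusted p = 0.0288) lower. Genes outside the immune lists were also among the 26. Higher were Tph1 (1.42, the largest estimate), Cga (0.95), Trhr (0.86) and Prkcd (0.83). Lower were Lrrc10b (-1.06, the lowest estimate) and Hbb-b1 (-0.75). That fit rests on 2 pairs with 1 residual degree of freedom, beside 25.3 prior degrees of freedom borrowed from all genes. It leaves out the pair in which RT1-Da (-0.82) and Cd74 (-0.42) were below 0. The genes given here had been named for their naive difference, which the fit uses again, so it is no independent check of them. In the limma fit of all 3 pairs the adjusted p was 0.644 for RT1-Da, 0.582 for Cd74 and 0.493 for C3. Without the 14 d pair Oxt and Avp passed, and without the naive pair 0 did. A further limma fit of the naive difference minus the mean difference after stroke, chosen after the data were seen, passed 0 genes (0%). At an unadjusted p under 0.05 it gave 330 (3.17%), and its smallest adjusted p was 0.139, for Th. It has 1 residual degree of freedom and averages the 3 d and 14 d pairs, so it does not set naive brain against either one. The residual spread in these fits is how far the age difference varied between the pairs of pools. It mixes noise between pools with any change of the age difference over time. With 1 pool a group, the p-values do not measure the spread between pools of a group.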

How the data were processed

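RNA was measured on 6 arrays, 1 for each group, in pools of 15 to 23 rats. The authors deposited 1 value for each probe set and array, used here as a log2 value, a base read from the range since no source states it. The submitters' processing notes list R 2.14.0 and affy; background correction, normalization and build are given by no source used here. Scaling arrays alike hides a global shift in RNA, and large folds come out too small. With no scan date, batch and group cannot be told apart.

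Of 28826 probe sets 15209 had 1 symbol, 306 several and 13311 none in the platform annotation. Of the first, 15178 matched RefSeq genes of GRCr8, used for names, with 0 symbols changed. The probe set with the highest mean over the 6 arrays stood for a gene. Differences are plain subtractions, called by size (2-fold, 1.5-fold). Named genes are the 15 highest and 15 lowest at or above the array median, passing over locus-style names and chemoreceptors (39 kept genes), and up to 4 widest of each list. The genes past 2-fold that lie below that median are named too. Of 1068 list entries in 49 lists 915 matched by symbol, 16 by synonym and 137 did not. Limma 3.58.1 in R 4.3.3 (lmFit, eBayes, Benjamini-Hochberg) was tested on simulated data. Members and lists were chosen with earlier results of these data known. Alternatives were other scaling, filters and probe set rules, arrays left out, and other variance settings.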

Additional observations from a re-analysis of the deposited data

Results flagged for a closer look

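In 4 named genes the naive difference and that of a stroke pair ran in opposite directions, with each past 1.5-fold; the groups are 1 array each, so this difference between pairs was not tested within a pair. RT1-Da stood at 1.61 in naive brain and -0.82 at 3 d after stroke. RT1-Ba stood at 1.21 in naive brain and -0.64 at 3 d. Calb2 stood at 1.20 in naive brain and -0.74 at 3 d, where its levels were 6.002 on the aged and 6.74 on the young array. Lpar6 stood at -0.61 in naive brain and 0.89 at 14 d. Scn7a, named as past 2-fold below the array median, also ran in opposite directions, at 1.21 in naive brain and -1.06 at 14 d. Its young naive value lies below the filter.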

How the results depend on the processing

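The differences of the 30 named genes kept their sign under quantile normalization, centring of each array on its median and the mean of all probe sets. Genes 2-fold higher numbered 11 at a 60th percentile filter, and 1 gene was 2-fold lower without a filter. Without the 4 region lists 10 were 2-fold higher, an alternative chosen after seeing the data that only takes off their 7 genes. Genes 1.5-fold higher numbered 40 at the 60th percentile, and 1.5-fold lower 27 without a filter and 4 at the 60th percentile; the filters differ in how many genes enter. The count of the limma age fit was 6 with trended and robust variances and 0 to 26 with single arrays or pairs left out, where leaving out 1 array equals leaving out its pair. The cause was not tested. Of 48 list medians 10 moved at the 60th percentile, where the class II median was 1.41 and that of interferon-stimulated genes -0.004. The NADPH oxidase list had no member left. RT1-Da (percentile 65.9 on the aged and 37.3 on the young array) and RT1-Ba (61.7 and 40.1) passed that filter through the aged array alone. The class II median of 1.41 thus rests in part on genes kept only where they are high. The limma age fit compares ages within time points through its time term, and without that term 0 genes passed (89 at an unadjusted p under 0.05). Signal limits the low genes: 190 kept genes passed the filter on the aged naive array alone and 161 on the young one.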
